A study of Mus musculus with 35 samples.

Results

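Tubulins are the subunits of microtubules, and dynein with its partner complex dynactin and the kinesins are the motors and adaptors that move along them. The 40 genes described here, all present in the counts table, were chosen by name and grouped by what their proteins do: 10 tubulins, 7 subunits of dynein, 6 subunits of dynactin, 4 kinesins, and 13 linkers and regulators of microtubules. They were 40 of the 21236 genes of the table, and they were chosen with earlier results of these data known. Microglia came from mice heterozygous for Tmem119-2A-CreERT2 and for the Ai14(RCL-tdTomato)-D reporter, in which the microglial gene Tmem119 drives an inducible Cre that switches on tdTomato. Every mouse was 17 to 18 weeks old, carried both alleles and had received 5 injections of tamoxifen at 75 mg/kg, and brains were taken 10 to 21 days after the last one, so no group lacked the alleles or the drug. tdTomato-positive cells were sorted from midbrain, striatum and prefrontal cortex (PFC) of 6 male and 6 female mice, which gave 12 midbrain, 12 striatum and 11 PFC samples, the PFC group holding 5 males and 6 females.

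Microtubules are hollow polymers of alpha- and beta-tubulin dimers, with gamma-tubulin at the sites where they start. Dynein carries cargo toward the minus end and needs dynactin to do so over long distances, and most kinesins carry cargo toward the plus end. Microglia survey brain tissue with branched, moving processes, in which microtubules serve as tracks for vesicles, lysosomes and phagosomes.

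The shallowest sample held 37680501 counts in all and the deepest 54131421, and 3 counts there stood for 0.0796 and 0.0554 CPM (counts scaled to a common library size). Further, the lowest count of any member in any sample was 108. The 12 microglia markers summed to between 42250 and 53870 CPM in every sample. Markers of other cells were present at lower sums, with 18.8 to 60.8 CPM for neurons, 211.1 to 506.2 CPM for astrocytes and 231.1 to 896 CPM for oligodendrocytes. One column of the table carried a PFC name while its sample label said striatum. It was used as the striatum sample of mouse 3, as labelled, and results that it changes are given with and without it. In such bulk samples fewer cells of a kind and less RNA per cell cannot be told apart.

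The reads were 50 bases long, and the alpha-tubulin genes are close to identical in their coding sequence, which sets how far their counts can be told apart. The last 60 coding bases of 4 beta-tubulins are shown because they encode the C-terminal tail, a part in which tubulin isotypes differ. Each is written 5′ to 3′ on the coding strand, up to and including the stop codon, from GRCm38. Capitals mark bases that differ from Tubb5 or that lie opposite a gap in the alignment.
Tubb5, chr17:35834982-35835041, minus strand: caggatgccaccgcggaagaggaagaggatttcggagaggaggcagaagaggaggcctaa
Tubb2a, chr13:34074468-34074527, minus strand: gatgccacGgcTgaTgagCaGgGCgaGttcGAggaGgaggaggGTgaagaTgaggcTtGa
Tubb4a, chr17:57080690-57080749, minus strand: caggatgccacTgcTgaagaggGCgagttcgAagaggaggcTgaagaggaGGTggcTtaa
Tubb4b, chr2:25222308-25222367, minus strand: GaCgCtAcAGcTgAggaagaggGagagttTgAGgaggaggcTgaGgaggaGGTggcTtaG

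In these 60 bases Tubb4a had 10 capitals against Tubb5, Tubb2a had 16 and Tubb4b had 19. The start of Tubb2a was aligned with a gap and that of Tubb4b without one. The counts depend on this placement and do not rank the tails by difference. Over the whole coding sequence Tuba1b was identical to Tuba1a at 98.3% of bases and Tuba1c at 97.1%, whereas the beta-tubulins Tubb2a, Tubb4a and Tubb4b shared 84.6%, 83.9% and 82.2% with Tubb5. Of all 50-base windows of the exons, 75.5% for Tuba1a, 75.1% for Tuba1b and 52.7% for Tuba1c also occurred in another gene. The share was 49.6% for Tubb2a, most of it with the isotype gene Tubb2b, and 41.3% for Tubb4b, most of it with the pseudogene Tubb4b-ps1. By contrast, Tubb4a shared 0.184% of its windows, Tubb5 0.0892%, and Tubb6, Macf1 and Map7d1 shared none. How reads with several matches were counted is not given in the sources used here, so the split of counts among Tuba1a, Tuba1b and Tuba1c is uncertain, as is that between Tubb2a and Tubb2b and between Tubb4b and its pseudogene. Exons of Tuba4a overlapped those of Stk16 over 34.6% of its windows, and for Kif2a (19.7%), Stmn1 (18.9%) and Tubg1 (11.1%) the shared part was smaller.

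Per kilobase of exon, the mean level over all samples was highest for Tuba1a, at 222.5 CPM per kb, followed by the dynein light chain Dynlrb1 at 99.6, Tuba1b at 92.7 and Tubb2a at 79.7 CPM per kb. Tubb5, the ubiquitous beta-tubulin, stood at 55.3 CPM per kb, Tuba1c at 25.8, Tubb4b at 24.5, Tubb6 at 22.0 and the gamma-tubulin Tubg1 at 10.3 CPM per kb. The isotypes Tubb4a and Tuba4a were the lowest tubulins, at 6.89 and 6.01 CPM per kb. Among the motors the dynein heavy chain Dync1h1, which holds the motor domain, reached 1.81 CPM per kb, and the lowest level per length of any member was that of Macf1, at 0.718 CPM per kb. The low value per kb of the dynein heavy chain against its light chains therefore compares a transcript with 13935 coding bases with transcripts of 270 and 315 coding bases.

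The largest number of members differed between midbrain and striatum. By the cut-offs of the study (an effect of region at an adjusted p below 0.05, a p below 0.05 for the pair of regions, and a fold change over 1.2), 11 of the 40 members differed between striatum and midbrain, against 6.47% of all genes and 7.55% of genes with a mean of at least 5 CPM. Among them 6 were higher in striatum, against 3.5% of all genes, and 5 were lower, against 2.98%. At an adjusted p below 0.05 for the pair, without a minimum fold or the effect of region, the share of all genes was 7.45%, and 10 of the 11 passed. The effect of region itself was called for 12 members, against 8.89% of all genes and 11.4% of those with at least 5 CPM. Of the 10 tubulins 4 were lower and 1 was higher in striatum, with a median log2 fold change of -0.32. Of the 30 motor and linker proteins 5 were higher and 1 was lower, with a median of -0.06, and the median over all genes was 0.01. These are counts and medians, and the difference between the classes was not tested.

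**Figure D1:**
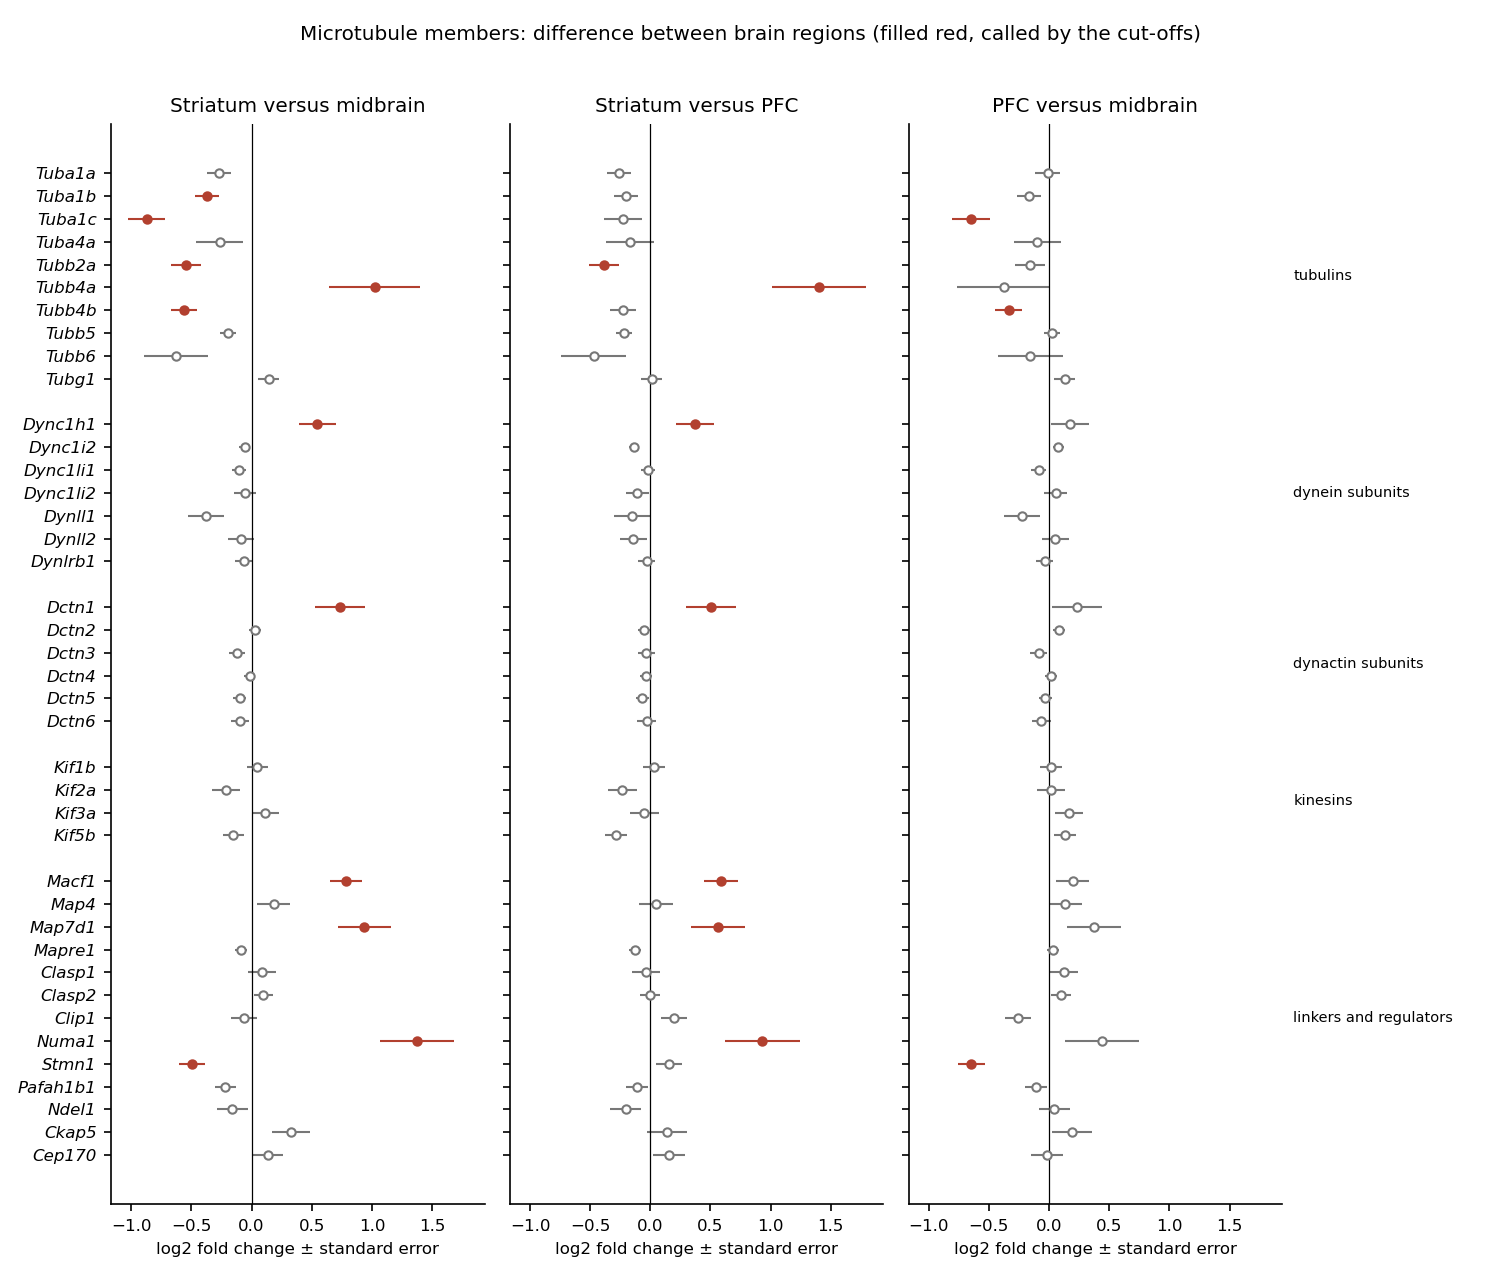
Log2 fold change of each of the 40 members between regions (x axis, with standard error), one panel for each pair of regions, genes grouped by class from tubulins at the top to linkers and regulators at the bottom; filled red points were called. In striatum versus midbrain 11 members were called, with tubulins and Stmn1 on the lower side and Tubb4a, Dync1h1, Dctn1, Macf1, Map7d1 and Numa1 on the higher side.

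Tuba1b, Tuba1c, Tubb2a and Tubb4b were lower in striatum. Tuba1c, an alpha-tubulin isotype of many tissues, showed the largest decrease: it ranged from 52.4 CPM to 147.5 CPM in midbrain with a median of 69.7 CPM, and from 27.5 CPM to 65.03 CPM in striatum with a median of 43.5 CPM. The ranges overlapped, but 9 of the 12 striatum samples lay below every midbrain sample, and the gene was lower in striatum than in midbrain in 12 of 12 mice. The log2 fold change was -0.87 ± 0.15 (SE), or 1.83-fold lower (edgeR quasi-likelihood test, Benjamini-Hochberg adjusted p = 0.000291). The highest midbrain value, 147.5 CPM, came from the female mouse 12, whose midbrain sample was also the highest for Tubb2a, Tubb4b and Tubb6, and over the fits that left out each mouse in turn the log2 fold change stayed between -0.95 and -0.75.

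Tubb4b, the beta-tubulin also used in cilia, ran from 48.9 to 88.2 CPM in midbrain (median 61.3 CPM) and from 26.03 to 56.6 CPM in striatum (median 42.5 CPM). Again 8 of 12 striatum samples were below every midbrain sample and the direction was the same in 12 of 12 mice, with a log2 fold change of -0.56 ± 0.11 (edgeR adjusted p = 0.00075). Tubb2a, a beta-tubulin abundant in neurons, ran from 99.3 to 208.4 CPM in midbrain (median 144.7 CPM) and from 54.1 to 147.8 CPM in striatum (median 107.7 CPM). It was lower in striatum in 11 of 12 mice, by a log2 fold change of -0.54 ± 0.12 (edgeR adjusted p = 0.00483), although only 5 striatum samples lay below the midbrain range.

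Tuba1b, an alpha-tubulin of most cell types, had 165.9 to 234.0 CPM in midbrain (median 203.9 CPM) and 113.6 to 213.5 CPM in striatum (median 141.7 CPM). Its log2 fold change was -0.37 ± 0.10, with 12 of 12 mice lower (edgeR adjusted p = 0.0136). This call was lost when mouse 2, 5, 10 or 12 was left out, while the log2 fold change stayed between -0.42 and -0.35. Tuba1a, the most abundant member, had 323.9 to 510.1 CPM in midbrain (median 437.7 CPM), 253.8 to 461.5 CPM in striatum (median 344.9 CPM) and 296.5 to 526.3 CPM in PFC (median 450.7 CPM). It had a log2 fold change of -0.27 ± 0.10 and was not called, because its effect of region had an edgeR adjusted p of 0.116. With the mouse as a block, or with the sets of mice 1 to 6 and 7 to 12 as a covariate, it was called lower in striatum than in midbrain.

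Because the alpha-tubulin genes share most of their windows, their sum was also taken. Tuba1a, Tuba1b and Tuba1c together ran from 557.4 to 822.1 CPM in midbrain (median 704.8 CPM), from 414.5 to 700.2 CPM in striatum (median 535.0 CPM) and from 511.1 to 777.3 CPM in PFC (median 670.9 CPM). The sum, unlike its parts, does not depend on how reads common to the 3 genes were divided among them, although it does on whether such reads were kept. All 10 tubulins summed to a median of 1221 CPM in midbrain, 983 CPM in striatum and 1140 CPM in PFC, with overlapping ranges. The sums of the 6 dynactin subunits lay closer, at medians of 494.6, 497.2 and 507.6 CPM.

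The other tubulins were not called between striatum and midbrain, with the exception of Tubb4a. Tubb5 had an effect of region (edgeR adjusted p = 0.0377) but its decrease in striatum, a log2 fold change of -0.20 ± 0.06, stayed under the fold of 1.2. Without the striatum sample of mouse 3 its effect of region was lost, as was that of Dync1h1, while Kif5b gained one, so that 11 members had one. Tubb6, a minor beta-tubulin isotype, had a log2 fold change of -0.63 ± 0.27 with an adjusted p of 0.161 (edgeR), and it varied most within a region: 1 male PFC sample, from mouse 11, had 198.6 CPM where the next PFC sample had 75.7 CPM. Tuba4a and Tubg1 had log2 fold changes of -0.26 ± 0.19 and 0.14 ± 0.09.

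**Figure D2:**
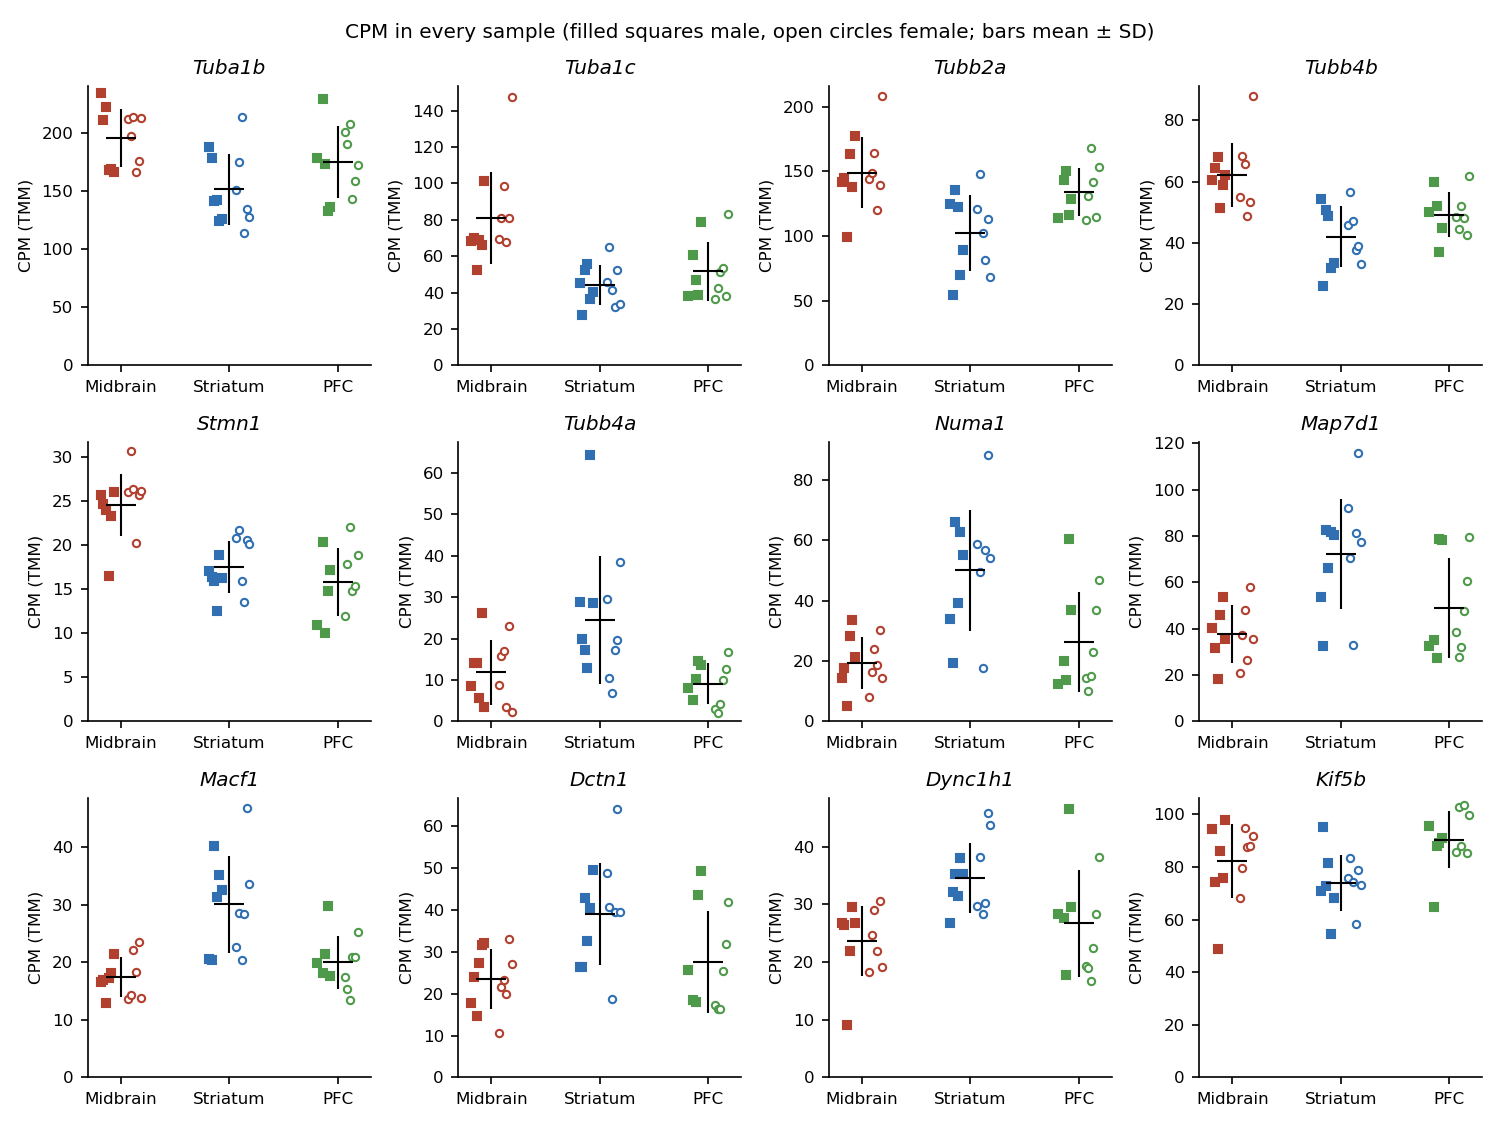
CPM (y axis, from 0) in every sample of midbrain, striatum and PFC for the 11 members called between striatum and midbrain and for Kif5b; filled squares are males, open circles females, and bars the mean ± SD. For Tuba1c 9 of 12 striatum samples lie below every midbrain sample and for Numa1 10 of 12 lie above every midbrain sample, whereas the ranges of every member overlap between regions.

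Tubb4a, the beta-tubulin that oligodendrocytes and neurons use, was the 1 tubulin called higher in striatum. It ran from 2.27 to 26.2 CPM in midbrain (median 11.4 CPM), from 6.98 to 64.4 CPM in striatum (median 19.8 CPM) and from 2.09 to 16.8 CPM in PFC (median 10.1 CPM). Striatum was higher than midbrain in 9 of 12 mice and higher than PFC in 11 of 11. The log2 fold change was 1.025 ± 0.38 against midbrain and 1.402 ± 0.39 against PFC, called by the cut-offs but with edgeR adjusted p-values of 0.0967 and 0.0882 for the pairs. The call was lost when mouse 1, 2, 5 or 11 was left out.

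Like Tubb4a, oligodendrocyte markers had their highest median in striatum. The 12 markers, all detected, summed to 305.2 to 518.9 CPM in midbrain (median 414.2 CPM), 303.1 to 895.9 CPM in striatum (median 468.9 CPM) and 231.1 to 538.3 CPM in PFC (median 298.7 CPM). The striatum sample with 64.4 CPM of Tubb4a, from the male mouse 9, was also the one with 895.9 CPM of these markers. Among midbrain samples, those of mice 9 and 10 had the highest sums and also the highest Tubb4a. Midbrain samples of mice 4 and 11, in contrast, had similar sums, 413.4 and 415 CPM, but 15.7 and 3.49 CPM of Tubb4a. These are single samples, and the relation of Tubb4a to these markers within a region was not tested. Among the markers only Ermn and Opalin were called between striatum and midbrain, both higher in striatum. The log2 fold change was -0.085 for Mbp, 0.09 for Mag and 0.13 for Cnp. The markers were entered as a covariate by the mean of their centred log2 CPM, so each marker weighed the same. In this fit the log2 fold change of Tubb4a against midbrain was 0.35 and was not called (edgeR adjusted p = 0.605). Since the marker levels themselves differed between regions, the fit cannot separate them from region. In that fit, where 4.83% of all genes were called, the called members were Tuba1c at -0.85, Tubb4b at -0.48, Stmn1 at -0.59 and Macf1 at 0.66. Tuba1b (-0.27), Tubb2a (-0.43), Dync1h1 (0.39), Dctn1 (0.49), Map7d1 (0.60) and Numa1 (0.88) kept their direction and were not called. Astrocyte markers also differed between regions, with sums of 211.1 to 268 CPM in midbrain (median 239.3 CPM), 262.3 to 441 CPM in striatum (median 354 CPM) and 261.5 to 506.2 CPM in PFC (median 340.4 CPM). All 10 were detected. Slc1a2, Slc1a3, Aldoc and Sox9 were called higher in striatum than in midbrain. The others were not called, with log2 fold changes of 0.035 for S100b and -0.35 for Gfap among them. The part of astrocyte markers in the results was not tested.

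Among the motors, 1 of 7 dynein subunits and 1 of 6 dynactin subunits were higher in striatum, in each case the large one. Dync1h1 ran from 9.04 to 30.6 CPM in midbrain (median 25.6 CPM) and from 26.8 to 45.8 CPM in striatum (median 33.6 CPM), and 8 of 12 striatum samples lay above every midbrain sample. The log2 fold change was 0.55 ± 0.16, with 10 of 12 mice higher (edgeR adjusted p = 0.0244). Its call depended on single mice: it held without mouse 1, 6 or 9 and was lost without any of the other 9, and it was lost without the striatum sample of mouse 3, where the log2 fold change was 0.56. Dctn1, the subunit of dynactin that holds the microtubule, ran from 10.5 to 33.2 CPM in midbrain (median 23.7 CPM) and from 18.6 to 64.05 CPM in striatum (median 40.01 CPM). It was higher in 11 of 12 mice, with a log2 fold change of 0.73 ± 0.21 (edgeR adjusted p = 0.0224), and its call was lost without mouse 1, 2, 4, 5, 7, 8 or 10.

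No other subunit of either complex was called. The intermediate chain Dync1i2, which joins dynein to its cargo, had 80.0 to 103.6 CPM in midbrain (median 90.4 CPM), 81.2 to 98.7 CPM in striatum (median 87.1 CPM) and 88.6 to 108.0 CPM in PFC (median 95.01 CPM), a log2 fold change of -0.06 ± 0.04 between striatum and midbrain. The light chain Dynll1, a hub protein with many partners beside dynein, had 82.0 to 175.4 CPM in midbrain (median 124.6 CPM), 58.1 to 148.4 CPM in striatum (median 98.9 CPM) and 59.5 to 149.6 CPM in PFC (median 106 CPM). It was lower in striatum in 12 of 12 mice, with a log2 fold change of -0.38 ± 0.15, but its effect of region had an adjusted p of 0.227 (edgeR), and it was called with the mouse as a block or with the sets of mice as a covariate. Dync1li1, Dync1li2, Dynll2 and Dynlrb1 had log2 fold changes between -0.11 and -0.05.

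Of the dynactin subunits, Dctn5, on the pointed end of the dynactin filament, had 147.6 to 180.8 CPM in midbrain (median 161.3 CPM), 124.8 to 182.8 CPM in striatum (median 154.1 CPM) and 133.9 to 180.5 CPM in PFC (median 164.5 CPM). Dctn3, part of the shoulder of the complex, had 44.9 to 64.1 CPM in midbrain (median 56.1 CPM), 42.4 to 60.3 CPM in striatum (median 50.1 CPM) and 39.6 to 64.6 CPM in PFC (median 52.2 CPM). For Dctn5 5 of 12 striatum samples lay below every midbrain sample and 1 lay above, and neither gene was called. Dctn2, Dctn4 and Dctn6 had log2 fold changes of 0.03 ± 0.05, -0.02 ± 0.05 and -0.10 ± 0.08 between striatum and midbrain.

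No kinesin was called in any pair of regions. Kif5b, the heavy chain of conventional kinesin, had 48.97 to 97.9 CPM in midbrain (median 86.8 CPM), 54.7 to 95.04 CPM in striatum (median 73.7 CPM) and 64.7 to 103.5 CPM in PFC (median 89.2 CPM). Its effect of region had an edgeR adjusted p of 0.0986. Between striatum and PFC its log2 fold change was -0.28 ± 0.09, lower in 10 of 11 mice, and it was called there with the mouse as a block or without the striatum sample of mouse 3. Kif2a, which takes microtubules apart at their ends, ran from 5.42 to 11.2 CPM in midbrain (median 7.27 CPM), from 4.93 to 8.60 CPM in striatum (median 6.14 CPM) and from 5.63 to 11.5 CPM in PFC (median 7.16 CPM). Kif3a, of the kinesin that builds cilia, ran from 9.70 to 17.9 CPM, 9.54 to 17.4 CPM and 8.08 to 20.2 CPM in midbrain, striatum and PFC, with medians of 12.0, 13.6 and 14.3 CPM. Kif1b had a log2 fold change of 0.05 ± 0.09 between striatum and midbrain.

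Numa1, Macf1 and Map7d1 were higher in striatum. Numa1, which anchors spindle poles in dividing cells and binds dynein, showed the largest difference of any member between striatum and midbrain: it ran from 5.23 to 33.6 CPM in midbrain (median 18.2 CPM), from 17.6 to 88.4 CPM in striatum (median 54.5 CPM) and from 10.01 to 60.6 CPM in PFC (median 20.1 CPM). Of the 12 striatum samples 10 lay above every midbrain sample, and 11 of 12 mice were higher. The log2 fold change was 1.37 ± 0.31, or 2.59-fold (edgeR adjusted p = 0.00393). Macf1, a giant protein that ties microtubules to actin, ran from 12.9 to 23.6 CPM in midbrain (median 17.1 CPM), from 20.3 to 46.8 CPM in striatum (median 29.9 CPM) and from 13.4 to 29.7 CPM in PFC (median 19.8 CPM). Here 8 of 12 striatum samples exceeded every midbrain sample, with a log2 fold change of 0.79 ± 0.14 (edgeR adjusted p = 0.000185). Map7d1, of the family that recruits kinesin-1 to microtubules, ran from 18.1 to 57.9 CPM in midbrain (median 36.5 CPM) and from 32.6 to 115.7 CPM in striatum (median 78.9 CPM), a log2 fold change of 0.94 ± 0.22 (edgeR adjusted p = 0.00603). Macf1 and Map7d1 were each higher in 11 of 12 mice, and these 3 calls held with any mouse left out.

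Stmn1, which binds tubulin dimers and is abundant in dividing and immature cells, was the 1 linker or regulator that was lower. It ran from 16.4 to 30.7 CPM in midbrain (median 25.7 CPM), from 12.6 to 21.7 CPM in striatum (median 16.7 CPM) and from 10.1 to 22.1 CPM in PFC (median 15.4 CPM). It was lower in striatum than in midbrain in 12 of 12 mice, with a log2 fold change of -0.49 ± 0.11 (edgeR adjusted p = 0.00269). Mapre1, which tracks growing plus ends and was the most abundant regulator by count, ran from 231.2 to 328.7 CPM in midbrain (median 262.0 CPM), from 215.7 to 273.3 CPM in striatum (median 247.3 CPM) and from 249.4 to 310.2 CPM in PFC (median 270.0 CPM), and was not called. Map4, Clasp1, Clasp2, Clip1, Pafah1b1, Ndel1, Ckap5 and Cep170 had log2 fold changes from -0.22 to 0.33 between striatum and midbrain and were not called.

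Like Stmn1, markers of dividing cells had a higher median in midbrain than in striatum and PFC. The 12 markers, all detected, summed to 18.8 to 52.8 CPM in midbrain (median 39.9 CPM), 10.8 to 26.8 CPM in striatum (median 19.8 CPM) and 5.85 to 18.9 CPM in PFC (median 9.58 CPM). The median of the sums was lower in PFC than in striatum, whereas Stmn1 was not called between them (log2 fold change 0.15 ± 0.11). With the level of these markers as a covariate, the log2 fold change of Stmn1 against midbrain was -0.37 in striatum and it was no longer called (edgeR adjusted p = 0.0549). Tuba1c at -0.999, Tubb4b at -0.67 and Tubb2a at -0.58 were called. Since the markers themselves differed between regions, this fit cannot separate their level from region. The midbrain sample of mouse 12, with the highest Tuba1c, had the lowest sum of dividing cell markers in midbrain, at 18.8 CPM. Its Stmn1, at 26.1 CPM, was above the midbrain median. This is 1 sample, and the relation of either gene to these markers within a region was not tested.

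Striatum was then compared with PFC. These values share the striatum samples with the comparison above, so the similar direction is no separate evidence. Of the 40 members 7 were called, against 3.14% of all genes and 3.2% of those with at least 5 CPM, with 6 higher in striatum, against 2.31%, and 1 lower, against 0.833%. The log2 fold changes were 0.93 ± 0.31 for Numa1, 0.59 ± 0.14 for Macf1, 0.56 ± 0.22 for Map7d1, 0.50 ± 0.21 for Dctn1, 0.37 ± 0.16 for Dync1h1 and 1.402 ± 0.39 for Tubb4a. Tubb2a was the 1 member that was lower, with -0.39 ± 0.13. For Macf1 the adjusted p for the pair was 0.0366 (edgeR), where 0.57% of all genes were below 0.05, with 11 of 11 mice higher, and for the other 6 it was between 0.0882 and 0.321. For PFC, Map7d1 ran from 27.3 to 79.6 CPM, Dctn1 from 16.3 to 49.3 CPM and Dync1h1 from 16.7 to 46.6 CPM, each range reaching over the striatum medians of these genes.

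PFC and midbrain differed in 3 members, against 5.99% of all genes and 6.06% of those with at least 5 CPM. All 3 were lower in PFC, against 3.24% of all genes, and 0 were higher, against 2.75%. At an adjusted p below 0.05 for the pair, which 6.52% of all genes passed, 2 of the 3 remained called. Stmn1 had a log2 fold change of -0.65 ± 0.11 and was lower in 11 of 11 mice (edgeR adjusted p = 9.3e-05). With the dividing cell markers as a covariate its log2 fold change was -0.36 and it was not called (edgeR adjusted p = 0.435), and in males alone it was -0.68 and not called (edgeR adjusted p = 0.06003). Tuba1c ran from 36.8 to 83.0 CPM in PFC (median 46.7 CPM), a log2 fold change of -0.65 ± 0.16 (edgeR adjusted p = 0.00725). Tubb4b, with 36.96 to 61.8 CPM in PFC (median 48.6 CPM), had -0.34 ± 0.11 and an adjusted p of 0.0589 (edgeR). These 3 calls held with any mouse left out. Tuba1c and Tubb4b were thus lower in both forebrain regions than in midbrain, and between striatum and PFC they had log2 fold changes of -0.23 ± 0.16 and -0.23 ± 0.11 and were not called.

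The length and GC content of the coding sequence, which the choice of genes had not used, varied widely among the members. Of those called higher, the coding sequence has 22068 bases in Macf1, 13935 in Dync1h1, 6285 in Numa1, 3846 in Dctn1, 2541 in Map7d1 and 1335 in Tubb4a. The GC content is 64.1% in Map7d1, 59.1% in Dctn1, 57.6% in Tubb4a, 56.4% in Numa1, 53.5% in Dync1h1 and 47.4% in Macf1. Of the 8 members with a coding sequence over 4 kb, 3 were higher in striatum than in midbrain and none was lower, with a median log2 fold change of 0.23. Of the 31 shorter members 3 were higher and 5 lower, with a median of -0.10. Of the 10 members with a GC content over 55%, 4 were higher, 2 were lower (Tubb2a and Tubb4b) and 4 were not called (Tubb5, Tubb6, Tubg1 and Dctn3), and of the other 29 with a coding sequence found 2 were higher, 3 lower and 24 not called.

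**Figure D3:**
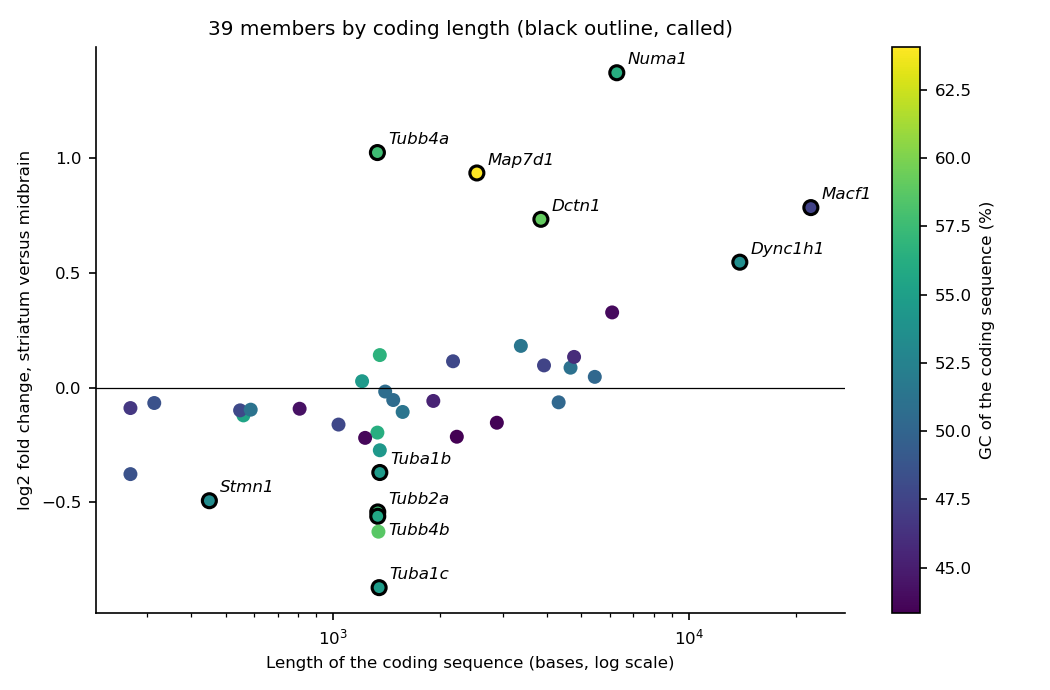
Log2 fold change between striatum and midbrain (y axis) against the length of the coding sequence (x axis, log scale) for the 39 members with a coding sequence found, coloured by GC content; black outlines mark called members. The 3 called members over 4 kb, Numa1, Macf1 and Dync1h1, are on the higher side, and the called tubulins other than Tubb4a, all near 1.3 kb, are on the lower side.

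Among the other genes a shift was seen in those both long and GC-rich, limits that only Numa1 met among the members. Of the 106 other genes above 8 CPM with a coding sequence over 4 kb and a GC content over 55%, 37 (34.9%) were higher in striatum than in midbrain and 0 were lower, with a median log2 fold change of 0.32. Of 338 genes as long but less GC-rich, 20 were higher and 6 lower, with a median of 0.02, and of 7661 shorter genes 240 were higher and 287 lower. The mean centred log2 CPM of these 106 genes, taken as an index of each sample, ran from -0.65 to 0.12 in midbrain (median -0.16), from -0.17 to 0.56 in striatum (median 0.33) and from -0.48 to 0.31 in PFC (median -0.12). In midbrain the 6 samples of mice 1 to 6 lay at or below -0.15, as did that of mouse 12, at -0.16. In PFC the index ran from -0.48 to -0.20 in mice 1 to 6 and from -0.12 to 0.31 in mice 7 to 12, without overlap. In striatum it ran from -0.17 to 0.33 (median 0.13) in mice 1 to 6 and from 0.12 to 0.56 (median 0.38) in mice 7 to 12. The index thus had a higher median in mice 7 to 12 in every region, and the cause was not tested.

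**Figure D4:**
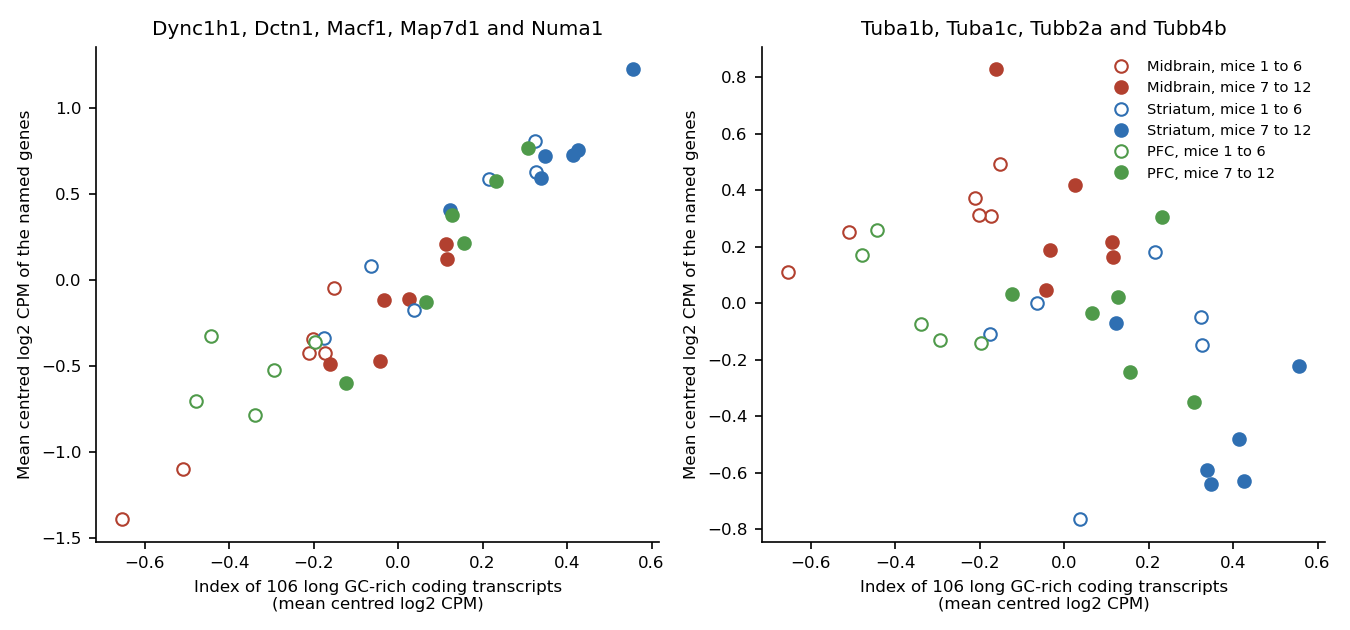
Each point is a sample, with the index of 106 long GC-rich coding transcripts on the x axis and the mean centred log2 CPM of 5 motor and linker genes (left) or 4 tubulins (right) on the y axis; colours give the region, open points mice 1 to 6 and filled points mice 7 to 12. On the left, samples with a high index have high values in every region, and the midbrain sample with the lowest index, -0.65, has the lowest mean, -1.39.

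With this index as a covariate, none of the 6 members that were higher in striatum than in midbrain was called. Numa1 went from a log2 fold change of 1.37 to 0.29, Map7d1 to 0.14, Dync1h1 to 0.09, Tubb4a to 0.19 and Dctn1 to -0.06. Macf1 came to 0.33, with an adjusted p of 0.049 for the pair (edgeR) but no call for the effect of region. Tuba1c at -1.005, Tubb2a at -0.54, Stmn1 at -0.47 and Tubb4b at -0.42 were called as before, and Tuba1b at -0.06 was not. In this fit 8 members were called, 7 lower and 1 higher in striatum, against 8.2% of all genes, and 4 of the 8 were among the 11 called without the index. The other 4 were Tubb6 at -1.13, Clip1 at -0.33, Map4 at -0.27 and Clasp2 at 0.29. Since the index was computed from the same libraries as the members, it cannot be told apart from a difference between the regions in such transcripts.

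Males and females did not differ in any member by the cut-offs of the study (p below 0.05 and a fold change over 1.2), against 4.13% of all genes and 2.77% of those with at least 5 CPM. At an adjusted p below 0.05, 0.339% of all genes and 0 members differed. DESeq2 also called 0 members. At an unadjusted p below 0.05 in edgeR, 6 members differed, Tuba1a, Dync1i2, Dync1li1, Dctn4, Clasp2 and Stmn1, with log2 fold changes of male versus female from -0.19 to 0.15 and adjusted p-values from 0.552 to 0.594, where 8.02% of all genes passed. Dynll1 had the largest difference toward females, with a log2 fold change of -0.24 ± 0.12 and an adjusted p of 0.644 (edgeR). No gene of the table, member or other, had an interaction of region and sex at an adjusted p below 0.05 (0% of all genes). The lowest unadjusted p among the members was 0.0956, for Mapre1.

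The other genes of the pathway were taken from lists of tubulin folding and modification, gamma-tubulin complexes, further dynein, kinesin and adaptor subunits and microtubule-associated proteins. Of 136 genes 130 were in the table, and 14 were higher and 2 lower in striatum than in midbrain (3.5% and 2.98% of all genes), with a median log2 fold change of 0.09. The centrosome scaffolds Pcnt and Akap9 had log2 fold changes of 0.99 ± 0.27 and 0.68 ± 0.14. The kinesin Kif21b, at a mean of 20.4 CPM in midbrain and 29.4 CPM in striatum, had 0.53 ± 0.10, Map1s had 0.44 ± 0.09 and Tacc2 had 0.41 ± 0.15. The 2 lower genes were Tacc3, a spindle protein, with -0.39 ± 0.15, and Fignl1, a severing enzyme relative, with -0.76 ± 0.26. Pcnt and Kif21b are long and GC-rich in their coding sequence by the limits above. Akap9 and Tacc2, with a GC content of 45.6% and 54.6%, and Map1s, with 2922 coding bases, are not. For comparison, of 57 genes of the actin cytoskeleton 5 were higher and 4 lower, against the same shares of all genes, with a median log2 fold change of -0.05. Of those higher, myosin heavy chain Myh9 had 0.93 ± 0.19 and talin Tln1 0.92 ± 0.23, both long and GC-rich. The others, Actn1 at 0.84 ± 0.17, Fmnl1 at 0.39 ± 0.11 and Fscn1 at 0.37 ± 0.09, have coding sequences under 4 kb. The lower genes were the capping protein Capg with -1.08 ± 0.10, Vim with -0.84 ± 0.19, Tmsb10 with -0.56 ± 0.11 and Actr3 with -0.27 ± 0.05.

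A further 8 called genes of these lists were low. Kif5a, a kinesin of neurons, had a mean of 1.51 CPM in midbrain and 6.33 CPM in striatum. Map2, Stmn2, Stmn4 and Dclk1, also neuronal, had means of 0.236 to 0.855 CPM in midbrain and 0.759 to 2.16 CPM in striatum, and Dcx had 0 CPM in midbrain and a mean of 0.293 CPM in striatum. Dynlrb2 and Agbl2, genes of cilia, stayed at means of at most 0.104 CPM in either region. In PFC the means were 5.79 CPM for Kif5a, 1.60 CPM for Map2, 0.933 CPM for Stmn2, 1.59 CPM for Dclk1 and 0.821 CPM for Stmn4, while Dynlrb2 and Agbl2 were at 0. Neuron markers had sums of 18.8 to 28.3 CPM in midbrain (median 24.6 CPM), 24.3 to 47.3 CPM in striatum (median 32.2 CPM) and 32.2 to 60.8 CPM in PFC (median 40.1 CPM), with 18 of 20 markers in the table and Stmn2 among them. With the neuron marker level as a covariate, 6 members were called between striatum and midbrain, Tuba1c, Tubb2a, Tubb4b, Stmn1, Macf1 and Numa1, while over all genes the called share fell to 2.91%. These markers also differed between regions, so this fit cannot separate their level from region.

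Within mice 1 to 6 alone 3 members were called between striatum and midbrain, Tuba1c, Numa1 and Stmn1, and within mice 7 to 12 alone 8 were, of which Kif5b was new; over all genes the called shares were 1.94% and 4.74%. Tuba1c had a log2 fold change of -0.66 in the first set and -1.08 in the second, Numa1 1.52 and 1.28, Stmn1 -0.55 and -0.44, and Macf1 0.65 and 0.88. Every one of the 11 members kept its direction in both sets and in each sex alone.

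**Figure D5:**
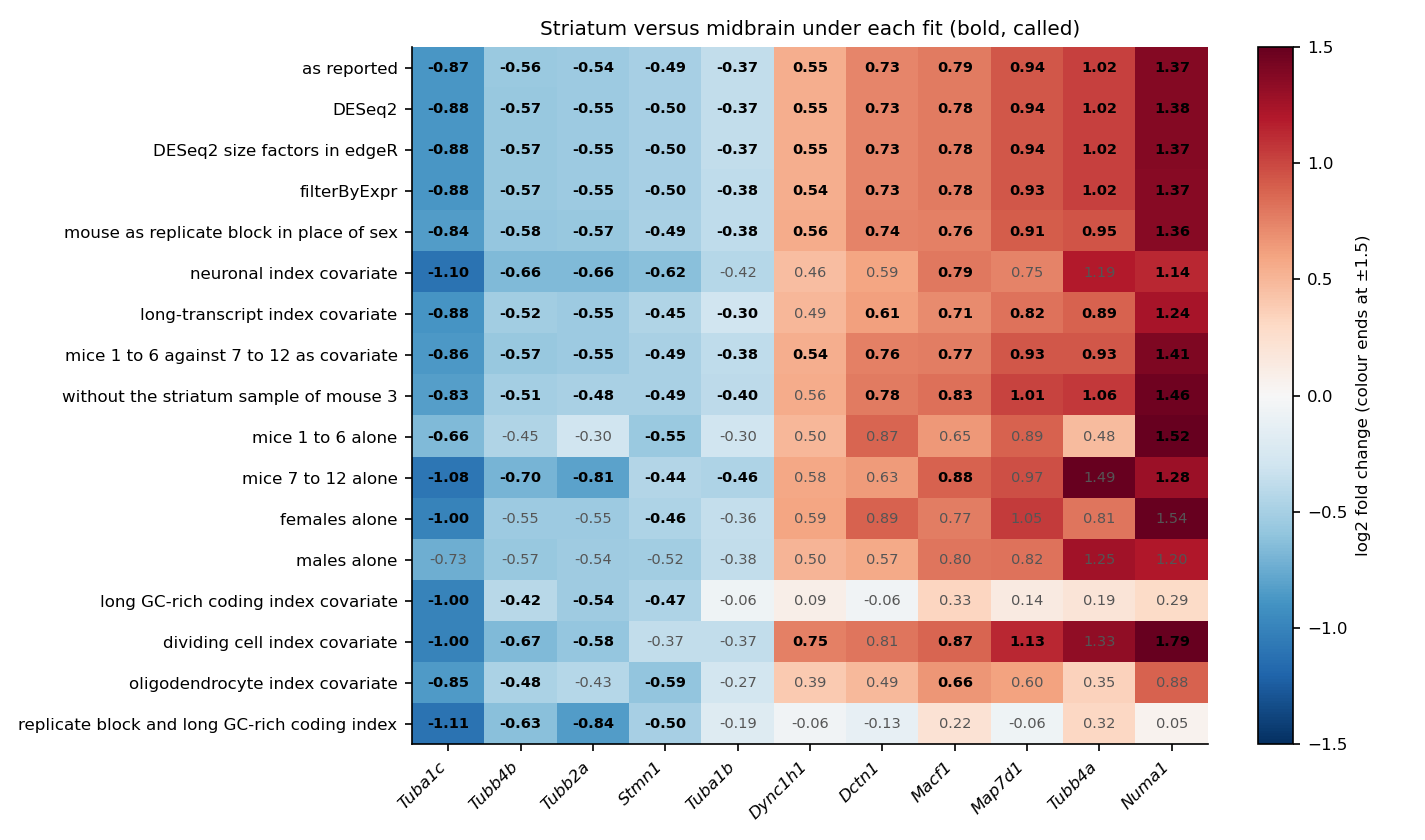
Log2 fold change between striatum and midbrain (colour and number) of the 11 called members, one column each, in each fit, one row each; bold numbers were called. Tuba1c is bold in all fits but that of males alone, and the row with the long GC-rich coding index brings the higher members to between -0.06 and 0.33.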

How the data were processed

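RNA was made into cDNA with the Smart-Seq HT kit and libraries with Nextera XT, which does not mark strand, and sequenced as pairs of 50 bases. The authors deposited raw counts per Ensembl gene after filtering low genes, from reads checked with FastQC, trimmed with Trimmomatic and aligned to GRCm38 with HISAT2; the counting of shared reads is not given in the sources used here. Symbols, exon lengths and sequences came from GENCODE M21. All 35 samples entered one edgeR 4.0.16 fit (R 4.3.3, TMM factors, robust quasi-likelihood test, region and sex as additive terms), with Benjamini-Hochberg adjustment over 21236 genes. The pair and sex cut-offs use unadjusted p-values with a fold of 1.2. CPM use the TMM factors. Standard errors are the log2 fold change divided by the root of F. Calls on the study's cut-offs were repeated with DESeq2 1.42.0 and other settings. The fits were tested on simulated data.

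The number in a sample's title was taken as the mouse, so that samples of a number come from 1 animal. Over 8623 genes, deviations were taken from the mean of each region and sex. Their mean correlation was 0.347 over 34 same-mouse pairs (lowest -0.266). It was -0.0676 over 170 pairs of different mice of the same sex, sampled in different regions. P-values of the additive fit ignore this pairing. The named members were those called in any pair, the 3 with the smallest region p in each class and the most abundant of each class. Members and gene lists were chosen with earlier results of these data known. The covariates for long GC-rich transcripts, dividing cells and oligodendrocytes were chosen after seeing the data. For marker covariates the centred log2 CPM was averaged over the markers of a cell type, so each marker weighed the same. Of the other pathway genes called between striatum and midbrain, 1 is not reported here, nor are some sequences.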

Additional observations from a re-analysis of the deposited data

How the results depend on the processing

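The 11 members called between striatum and midbrain came to 11 with DESeq2, with its size factors in edgeR and with filterByExpr, and to 10 without the striatum sample of mouse 3, where the region effect was called for 11. The shares of all genes called between striatum and midbrain in these fits were 7.61%, 6.53%, 7.83% and 6.4%. Counts of called members are given next in the order region effect, striatum versus midbrain, striatum versus PFC and PFC versus midbrain (12, 11, 7 and 3 as reported). With the mouse as a replicate block they were 15, 13, 9 and 3. With each mouse left out they ran from 7 to 13, 7 to 11, 4 to 7 and 3 to 3, and for sex from 0 to 1. The neuronal index gave 6, 6, 3 and 3, the oligodendrocyte index 4, 4, 1 and 3, the dividing cell index 8, 7, 3 and 5, the long GC-rich index 9, 8, 4 and 4, and this index with the replicate block 7, 7, 3 and 4. Mice 1 to 6 alone gave 4, 3, 2 and 3, females alone 2, 2, 0 and 2, and males alone 0, 0, 0 and 0, in fits that hold fewer samples. Between striatum and midbrain the called share of all genes also changed from the 6.47% reported. It was 8.62% with the block, 4.94% to 6.34% with a mouse left out, 2.91% with the neuronal index and 4.83% with the oligodendrocyte index. It was 4.04% with the dividing cell index, 8.2% with the long GC-rich index and 5.87% with that index and the block. In mice 1 to 6, females and males alone it was 1.94%, 2.11% and 0.833%. Between striatum and PFC, where 3.14% was reported, the share was 4.86% with the block and 2.36% to 3.03% with a mouse left out. The neuronal, oligodendrocyte and dividing cell indices gave 1.65%, 1.33% and 1.12%. The long GC-rich index gave 4.02%, and 3.21% with the block. In mice 1 to 6, females and males alone the share was 1.31%, 0.848% and 0.438%. Between PFC and midbrain, where 5.99% was reported, the share was 6.85% with the block and 4.87% to 5.68% with a mouse left out. The neuronal, oligodendrocyte and dividing cell indices gave 2.18%, 5.57% and 3%. The long GC-rich index gave 6.88%, and 6.03% with the block. In mice 1 to 6, females and males alone the share was 1.87%, 1.99% and 0.914%. Shares for the region effect are not given for these fits. With an adjusted p below 0.05 for the pair, 1 member was called between striatum and PFC, against 0.57% of all genes. For sex, 1 member (Dynll1, lower in males) was called with the neuronal, long-transcript, long GC-rich or dividing cell index, with the sets of mice as a covariate and in mice 7 to 12 alone, and 6 were without a minimum fold. Directions turned only with the long GC-rich index. Between striatum and midbrain, Dctn1 had a log2 fold change of -0.055 with it, and with the block as well Dctn1 had -0.127, Dync1h1 -0.058 and Map7d1 -0.062. Between striatum and PFC, Dctn1 had -0.112 and Map7d1 -0.064, and with the block Dctn1 had -0.167, Map7d1 -0.211, Dync1h1 -0.139 and Numa1 -0.091. The cause was not tested. Every member had at least 108 counts in every sample, and the split of shared reads among tubulins is uncertain.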
